A study of Mus musculus with 4 samples.

Results

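The genes described here are 9 genes that mark mast cells and basophils, Cma1, Mcpt4, Mcpt8, Cpa3, Tpsb2, Ms4a2, Fcer1a, Hdc and Mitf, and the measurement is the accessibility of chromatin at them in sorted mouse bone marrow cells with and without Cpt1a. In ATAC-Seq a transposase inserts into open DNA, and a stretch where insertions pile up is called a peak. A region was counted for a gene when a peak of any library overlapped the gene body or the 5000 bp on either side of it. Peaks that shared at least 1 bp were merged across libraries, which gave 78 regions at the 9 genes of 337776 in the whole series.

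The control libraries are labelled WT, and the paper describes the control animals as Cpt1a fl/fl. The KO libraries are labelled Cpt1a-KO and came from Cpt1a fl/fl mice that also carried Vav1-Cre, in which the Vav1 promoter drives Cre throughout the blood system, so the floxed allele was common to both groups and no control carrying Cre alone was among the libraries. All were adult C57BL/6 mice. Bone marrow cells were enriched for c-Kit, a receptor that mast cells also carry, and sorted, and the cells are labelled ltHSC and described in the paper as hematopoietic stem and progenitor cells. There were 2 libraries of each genotype. Nothing states whether a library came from 1 animal or from several, so any p-value below measures only the spread between these libraries.

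Mast cells and basophils are granulocytes that bind IgE through its high-affinity receptor and release stored histamine, proteases and lipid mediators when the receptor is crosslinked. Both arise from bone marrow progenitors, and in mice the chymases and tryptases of the granules are made mainly by mast cells, while Mcpt8 is a basophil protease. GATA and RUNX factors, PU.1 and MITF act at many genes of these cells. In a sorted population, a peak that is weak because few cells are open cannot be told apart from one that is weakly open in every cell.

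The sequences just before the annotated starts are shown because they include starts with a peak in every library and starts with none. Each is the 250 bases before the start, 5′ to 3′ on the gene's own strand, from RefSeq (GRCm38.p6, whose chromosome coordinates are those of mm10). Mitf, Hdc and Mcpt8 held a peak in all 4 libraries in the window that ends 50 bases after the start, Cpa3 held one in 3, and Cma1, Ms4a2 and Fcer1a held none. Capitals mark 6 motifs on either strand. For GATA factors the letters searched were GATAA, for MITF the E-boxes CACGTG and CATGTG, for RUNX factors TGTGGT, for PU.1 GAGGAA, and for the TATA box TATAAA.
Mitf (first start), chr6:97806808-97807057, plus strand: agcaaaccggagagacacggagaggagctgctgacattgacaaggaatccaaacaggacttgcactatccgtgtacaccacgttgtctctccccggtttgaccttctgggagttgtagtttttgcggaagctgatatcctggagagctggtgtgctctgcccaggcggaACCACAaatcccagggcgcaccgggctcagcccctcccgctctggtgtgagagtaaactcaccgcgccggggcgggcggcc
Hdc, chr2:126618679-126618928, minus strand: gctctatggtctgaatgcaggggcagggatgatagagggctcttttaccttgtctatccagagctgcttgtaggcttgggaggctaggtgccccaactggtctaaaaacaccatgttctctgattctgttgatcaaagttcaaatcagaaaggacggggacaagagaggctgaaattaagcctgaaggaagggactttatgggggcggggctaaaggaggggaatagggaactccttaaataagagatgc
Mcpt8, chr14:56085198-56085447, minus strand: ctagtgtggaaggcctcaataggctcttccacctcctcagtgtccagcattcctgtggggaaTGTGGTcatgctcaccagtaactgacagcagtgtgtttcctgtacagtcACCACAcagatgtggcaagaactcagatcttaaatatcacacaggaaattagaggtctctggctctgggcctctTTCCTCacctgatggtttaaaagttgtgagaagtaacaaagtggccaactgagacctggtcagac
Cpa3, chr3:20242182-20242431, minus strand: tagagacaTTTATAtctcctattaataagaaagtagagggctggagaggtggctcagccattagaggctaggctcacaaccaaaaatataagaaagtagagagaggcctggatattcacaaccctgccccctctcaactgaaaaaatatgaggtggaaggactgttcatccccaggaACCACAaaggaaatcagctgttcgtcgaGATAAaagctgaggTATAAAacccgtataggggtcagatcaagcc
Cma1, chr14:55944676-55944925, minus strand: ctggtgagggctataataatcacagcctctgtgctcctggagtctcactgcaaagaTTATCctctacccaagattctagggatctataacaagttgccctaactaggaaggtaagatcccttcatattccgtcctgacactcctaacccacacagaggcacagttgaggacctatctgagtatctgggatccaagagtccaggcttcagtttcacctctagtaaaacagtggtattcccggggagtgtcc
Ms4a2, chr19:11623720-11623969, minus strand: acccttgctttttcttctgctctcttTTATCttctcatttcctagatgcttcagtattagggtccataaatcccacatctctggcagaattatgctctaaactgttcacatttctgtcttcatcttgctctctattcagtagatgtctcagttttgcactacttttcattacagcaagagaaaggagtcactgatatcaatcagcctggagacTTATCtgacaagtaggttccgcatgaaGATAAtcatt
Fcer1a, chr1:173227230-173227479, minus strand: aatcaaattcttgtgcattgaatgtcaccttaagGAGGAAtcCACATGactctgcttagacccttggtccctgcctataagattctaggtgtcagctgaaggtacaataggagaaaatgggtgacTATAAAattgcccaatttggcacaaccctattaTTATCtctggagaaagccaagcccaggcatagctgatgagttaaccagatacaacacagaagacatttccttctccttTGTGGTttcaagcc

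GATAA stood in 7 of the 10 windows of these genes, against 22.6% of the 32619 start windows in the table. It was in all 5 windows without a peak, those of Cma1, Mcpt4, Ms4a2, Fcer1a and the third start of Mitf, and in 1 of the 4 windows with a peak in every library, that of the second start of Mitf, 36 bases before the start. The other such windows, those of the first start of Mitf, Hdc and Mcpt8, did not hold these letters. TGTGGT was in 5 of 10 windows (13.9% of all), TATAAA in 4 (12.4%), GAGGAA in 2 (23.4%), CATGTG in 1 (12.3%, the Fcer1a window) and CACGTG in 0 (6.06%). The Hdc window held none of the 6 motifs. Cpa3 carried GATAA 45 bases and TATAAA 31 bases before its start. Ms4a2 carried GATAA at 3 places, 224, 37 and 10 bases before its start. These matches are a description of letters and not of binding.

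The 4 peak lists held 240940 to 277594 summits each, every one with a −log10 p of at least 2, and no read counts, so the depth of the libraries is unknown. A −log10 q of 5 or more was reached by 42.5% and 46.8% of the control summits and by 40.5% and 35.1% of the KO summits, fewest in KO 2. The start of Cpt1a itself held a peak at the 94.7th and 93.7th percentile in the controls and at the 94.7th and 95.6th in the KO libraries, and since the floxed exons were not located here, this does not check the genotype. Of the hematopoietic stem cell genes listed as markers, 12 of 12 had a region with a peak in all 4 libraries and 9 of 10 with a start window had one there. Over protein-coding genes the shares were 79.7% and 10783 of 17273. Among genes of other lineages, T cell genes had a region in all 4 libraries at 9 of 11 and erythroid genes at 8 of 9. Their start windows held a peak in every library at 1 of 7 each, against 3 of 7 for B cell genes, 4 of 6 for megakaryocyte genes and 6 of 10 for neutrophil genes.

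Of the 78 regions, 22 (28.2%) held a peak in all 4 libraries, 8 in 3, 7 in 1 library of each genotype, 1 in both KO libraries alone and 40 (51.3%) in a single library. Across the series 23.8% of regions were in all 4 libraries and 59.3% in 1. The pooled share rests mostly on 2 genes, with 9 of 31 regions in all 4 libraries at Mitf and 7 of 15 at Hdc. Elsewhere it was 1 of 6 at Cma1, 0 of 3 at Mcpt4 and 2 of 3 at Mcpt8. It was 0 of 8 at Cpa3, 1 of 7 at Tpsb2 and 2 of 5 at Ms4a2. The regions in all 4 libraries were wider, with a median width of 526 bp, than the 92 bp of those in 1 library, and the same medians over all regions of the series were 526 and 97 bp. Regions in 1 library reached at most the 60.9th percentile. The percentile used throughout is a rank from 0 to 100. It places a region's highest −log10 p among all regions with a peak in the same library. The rank also depends on how many weak peaks that library's list holds, so equal scores can have different percentiles. A −log10 p of 3.1 in control 2 was percentile 16.8, while 3.11 in KO 2 was percentile 25.8. Weak peaks share few distinct scores, and 13 to 25 of the 41 to 43 percentiles of these genes in a library equalled that of another of their regions.

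The genes differed widely in the percentile of their strongest region, which was taken in each library separately. At Hdc, Cma1 and Cpa3 it was not the same region in every library, so their values compare different sites. Mitf stood at 98.5, 98.7, 99.1 and 98.5 in control 1, control 2, KO 1 and KO 2, above the strongest region of 83.7% to 90.9% of protein-coding genes. Hdc stood at 90.4, 87.6, 86.5 and 92.1, Ms4a2 at 88.1, 81, 89.1 and 82.3, and Tpsb2 at 87.7, 83.6, 88.3 and 87.5. These 3 lay below the median of protein-coding genes, 92.4 to 93.4 by library, and their order differed between libraries.

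Mcpt8 followed at 60.7, 37.3, 64.8 and 65.5, Cma1 at 43.9, 44.5, 43.8 and 53.5, and Cpa3 at 32.5, 53.9, 31.5 and 65.5. Mcpt4 stood at 56.9, 37.3 and 31.5 and held no peak in KO 2. Fcer1a held no peak in any library. Between the controls and the KO libraries, the values of Ms4a2, Tpsb2, Hdc, Cpa3, Cma1 and Mitf overlapped, whereas both KO values of Mcpt8 were higher than both controls and those of Mcpt4 lower where a peak existed. Neighbours in this order from Hdc to Tpsb2, and from Mcpt8 to Cpa3, did not differ beyond the spread of their libraries.

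**Figure D1:**
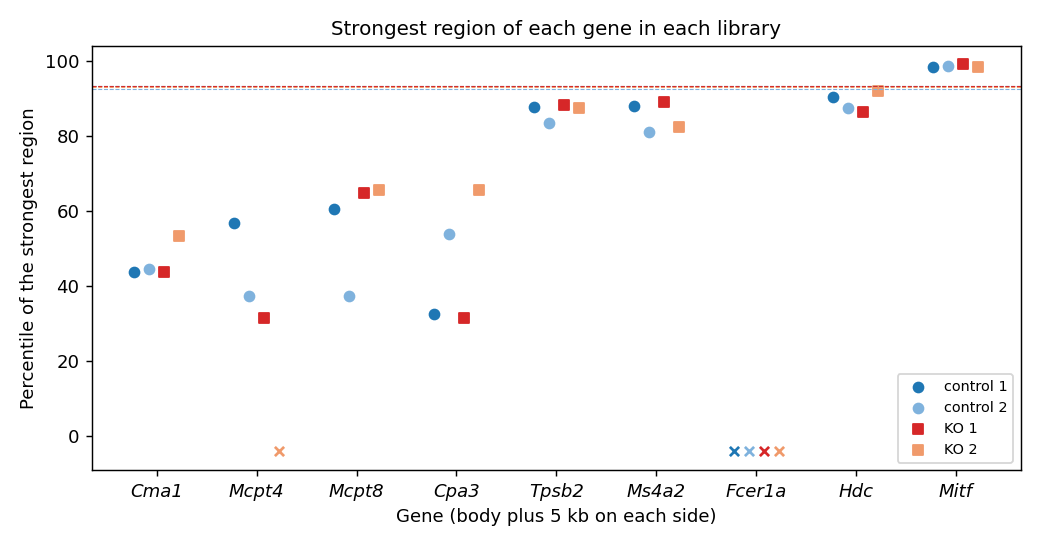
Percentile of the strongest region (y axis, rank of the highest −log10 p within a library, 0 to 100) for each gene (x axis), with 1 point per library, circles for the controls and squares for the KO libraries. Dashed lines are the median of protein-coding genes in each library and crosses mark libraries with no peak; Mitf is the gene above the lines in every library, and Fcer1a has no peak.

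Mitf encodes a basic helix-loop-helix factor that mast cells need for their development and that has several alternative starts. Its 31 regions, 9 of them in all 4 libraries, were spread over a gene of 214359 bp on chromosome 6 (chr6:97807002-98021360, mm10, plus strand). The first start carried the strongest region of the 9 genes, chr6:97806795-97807661, where the fold, which divides the summit's signal by its local background, was 25.8 and 25.2 in the controls against 27.5 and 23.3 in the KO libraries. The 4 summits lay within 11 bp of each other, 83 bp before the start, and the values of the genotypes overlapped. The quantile-normalized log2 fold differed by 0.04 (SE 0.09, adjusted p = 0.951 by limma).

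The second start of Mitf lay in chr6:97929408-97929924, whose summit in KO 2 was 122724 bp from the first start. The summits of the 4 libraries were spread over 332 bp, so their values may come from different sites within the region. Percentiles were 66.2 and 44.5 in the controls against 69.4 and 74 in the KO libraries. Both KO values were higher than both controls, and the log2 fold differed by 0.50 (SE 0.29, adjusted p = 0.729, limma), or by 0.27 without control 2. No library had a peak in the window of the third start (position 97991783), although 2 regions inside the gene beyond it, at 4219 and 11545 bp from that start, were in all 4 libraries. Their percentiles were 79.4, 79.7, 86 and 71.7, and 70.3, 76, 82 and 65.5, with overlapping genotypes. The intragenic regions 22123 and 50846 bp from the first start stood at 82.2, 72.5, 79.3 and 83, and at 78.4, 80.1, 78.2 and 74. At the latter, both controls were above both KO libraries, control 1 only narrowly above KO 1.

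Hdc encodes histidine decarboxylase, the enzyme that makes histamine, and was the gene with the densest shared accessibility among the 9. It held 1.73 regions in all 4 libraries per 10 kb of gene and flanks, against a median of 0.619 over protein-coding genes, 1.5 at Mcpt8, 1.09 at Ms4a2 and 0.401 at Mitf. Its 15 regions (chr2:126593659-126624025, minus strand) included 7 in all 4 libraries. The start region, chr2:126618484-126619275, stood at 80.6 and 87 in the controls against 85.1 and 76.5 in the KO libraries, and its genotypes overlapped.

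Farther into Hdc, the region 24723 bp from the start, near the gene's end, stood at 90.4, 86.1, 86.4 and 92.1. The region at 16314 bp stood at 89.4, 87.6, 86.5 and 87.2, and that at 12450 bp at 84, 84.1, 79.6 and 75.1, with both controls above both KO libraries in each. The region at 19455 bp stood at 81, 81.5, 83.8 and 82.6, with both KO libraries above. Its −log10 p overlapped between the genotypes, at 19, 24.9, 21.8 and 15.4. By percentile, shared regions stand apart at 19.2% (KO higher) and 17.6% (KO lower) of the series. At 16314 bp the nearest values, 87.6 and 87.2, were almost equal and the log2 fold differed by −0.03 (SE 0.23, adjusted p = 0.987, limma). None of the Hdc regions passed limma's test, with log2 differences from −0.32 (SE 0.29) to 0.22 (SE 0.26) over the 7 regions and adjusted p-values from 0.837 to 0.987.

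**Figure D2:**
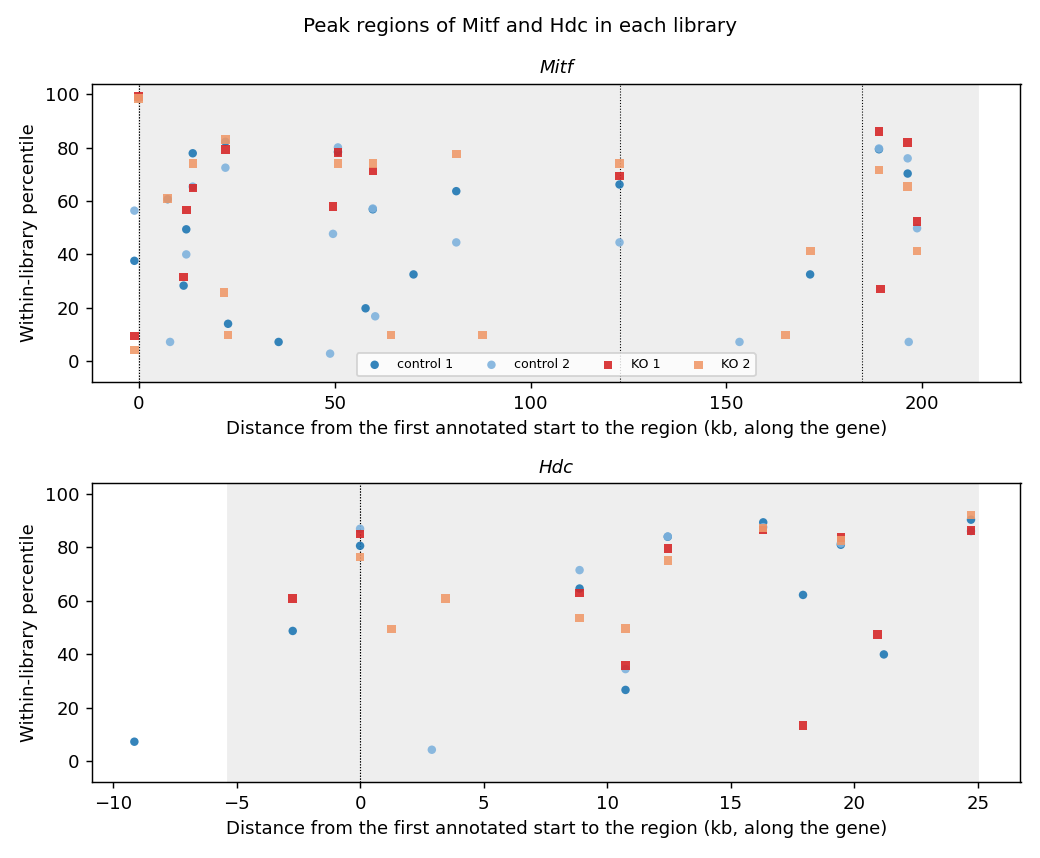
Regions of Mitf (top) and Hdc (bottom), with the distance from the first annotated start along the gene in kb on the x axis and the within-library percentile on the y axis, 1 point per library and region. Grey is the annotated gene body and dotted lines are annotated starts; the first Mitf start holds a region at the 98.5th percentile or above in every library, whereas the last of the 3 starts holds none.

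Ms4a2 and Fcer1a encode the beta and alpha chains of the high-affinity IgE receptor, and neither had a peak at its start. Ms4a2 (chr19:11615517-11623790, minus strand) had 5 regions, all past the end of the gene, of which 2 were in all 4 libraries. The stronger, chr19:11611530-11611940, began 3577 bp past the gene's end and had a fold of 9.8 and 7.69 in the controls against 10.8 and 6.5 in the KO libraries. The second, chr19:11613056-11613729, stood at percentiles 73.2, 40.3, 66.5 and 50.6. In both regions the genotypes overlapped, and replicates differed more than the genotypes did. The other 3 were in 1 library each, at percentiles 11.2 in control 2, 23.3 in KO 1 and 58.4 in KO 2.

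Fcer1a (chr1:173221269-173227232, minus strand) held 0 regions, as did 13% of protein-coding genes. The nearest peak lay 6830 bp from the gene and was in 1 library. The nearest region in all 4 libraries was 96681 bp away, at percentiles 63.7, 37.3, 43.8 and 41.3.

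Cma1, Mcpt4 and Mcpt8 encode granule serine proteases, Cma1 and Mcpt4 of the chymase family, and lie close together on chromosome 14. Cma1 (chr14:55941451-55944675) had 6 regions. One, chr14:55940551-55940692, 759 bp past the gene's end, was in all 4 libraries at 43.9 and 44.5 in the controls against 6.05 and 41.3 in the KO libraries, with a log2 difference of −0.26 (SE 0.27, adjusted p = 0.864, limma). Both controls were higher there, and KO 1 stood far below the other 3. The log2 difference was 0.01 without KO 1 and −0.54 without KO 2. A region 1729 bp upstream was in 3 libraries at 32.5, 37.3 and 43.8 and not in KO 2. The other 4 were in 1 library each, 1 in control 1 inside the gene at 32.5, 2 in KO 1 upstream at 31.5 and 1 in KO 2 downstream at 53.5.

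Mcpt4 (chr14:56059744-56062310) had 3 regions, with no peak at its start. One, 3885 bp past the gene's end, was in both controls at 56.9 and 37.3 and in KO 1 at 31.5, and the other 2 were in KO 1 alone, both at 18.1. No KO 2 peak lay within the 12.6 kb window.

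Among the granule protease genes of the 9, Mcpt8 (chr14:56082163-56085499) was the one with a peak overlapping its start window in every library. The region, chr14:56085288-56085494, had its summit 258 bp before the start and percentiles of 56.9, 16.8, 43.8 and 25.8 that overlapped. Its other shared region, chr14:56082115-56082444, lay at the end of the gene and also overlaps the microRNA gene Mir6949. It stood at percentiles 60.7 and 37.3 in the controls against 64.8 and 65.5 in the KO libraries, both KO values being higher. Its −log10 p overlapped, at 6.5 and 4.41 in the controls against 7.35 and 6.38 in the KO libraries. The log2 fold differed by 0.37 (SE 0.29, adjusted p = 0.807, limma). The controls differed from each other by more than control 1 differed from the KO libraries, and the log2 difference was 0.19 without control 2 and 0.54 without control 1. Another region, 1765 bp upstream of the gene, was in KO 2 alone at 25.8.

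Cpa3 encodes carboxypeptidase A3, a metalloprotease of mast cell granules, and held the single region of the 78 found in both KO libraries and neither control. This region, chr3:20244163-20244286, lay 1954 bp upstream of the gene, at percentiles 31.5 and 53.5 in the KO libraries with folds of 2.93 and 3.67 and −log10 q of 1.45 and 2.4. A control 2 peak stood at 37.3 in the neighbouring region, chr3:20243877-20244039, which none of the other libraries held. The start region, chr3:20242117-20242349, had its summit 28 bp before the start and was at 19.8, 53.9 and 65.5 in control 1, control 2 and KO 2, with no peak in KO 1. The highest value and the missing peak were thus both in KO libraries.

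Of the remaining Cpa3 regions (gene chr3:20215616-20242209, minus strand), 1 inside the gene 2209 bp from the start was in control 1 at 32.5, control 2 at 37.3 and KO 2 at 53.5. A region 18680 bp from the start was in control 2 at 27.4 and KO 1 at 31.5. The other 3 were in 1 KO library each, at 6.05 in KO 1 and at 41.3 and 53.5 in KO 2. No region of Cpa3 was in all 4 libraries, and the nearest such region lay 15948 bp from the gene, at 66.2, 82.5, 82 and 86.7.

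Tpsb2 encodes a mast cell tryptase on chromosome 17 (chr17:25366308-25368096, no start window in the table). Its shared region, chr17:25363615-25364058, lay 2250 bp outside the gene, with folds of 11.2 and 9.56 in the controls against 10.8 and 9.63 in the KO libraries, summits within 4 bp of each other and a log2 difference of 0.07 (SE 0.19, adjusted p = 0.953, limma). The genotypes overlapped closely there. A weaker region 2860 bp outside the gene was in control 1, control 2 and KO 1 at 53.4, 3.04 and 24.5. The other 5 were in 1 library each, at 0.973 to 46.5, and 3 of these overlap the neighbouring tryptase gene Tpsg1. No peak of any library touched the Tpsb2 gene body. The chymase and tryptase genes belong to families of related genes, and how alike their sequences are was not measured here. How reads that fit several places were treated is not given in the sources used here, so peaks at these genes are uncertain.

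**Figure D3:**
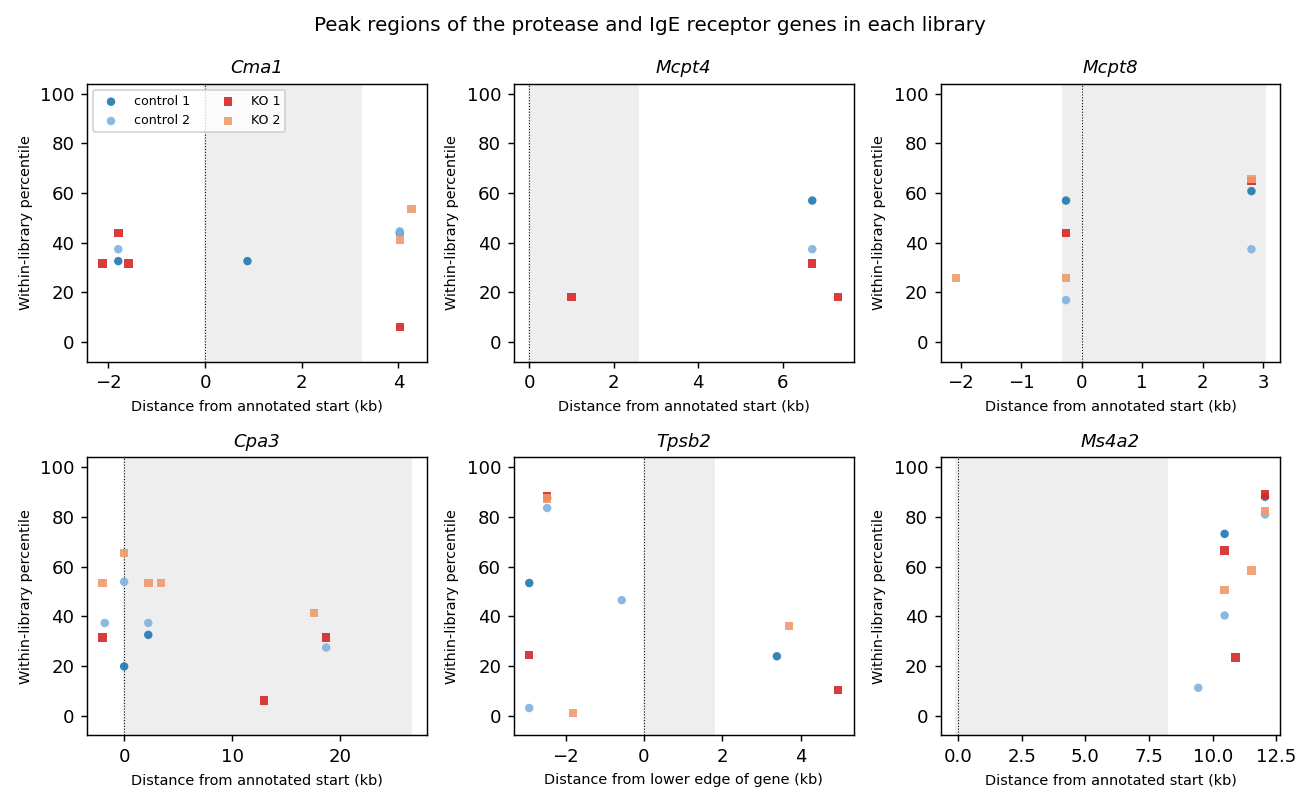
Regions of Cma1, Mcpt4, Mcpt8, Cpa3, Tpsb2 and Ms4a2, with the distance in kb from the annotated start along the gene (for Tpsb2 from the lower edge of the gene) on the x axis and the within-library percentile on the y axis, 1 point per library and region. Grey is the annotated gene body; the highest points are those of a region outside Tpsb2 (83.6 to 88.3) and of one past the end of Ms4a2 (81 to 89.1), and the points nearest to the dotted line of a start are those of Cpa3 and Mcpt8.

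Presence was then compared between the genotypes. Of the 38 regions of these genes with a peak in at least 2 libraries, 1 (2.63%) was only in KO, the Cpa3 region above, against 3.47% of such regions in the series. None of the 38 was only in control, against 6.05% in the series. With 1 library left out, a genotype with 1 library left needs 1 peak, or 1 missing peak, in place of 2, and shares were taken over regions with a peak in any of the 3 kept. Regions only in KO then numbered 15 of 69 without KO 1 (21.7%, against 21.4% of the series), 10 of 64 without KO 2 (15.6%, against 21.1%) and 2 of 69 without control 2 (2.9%, against 2.76%), and stayed at 1 of 70 without control 1 (1.43%, against 3.02%). Regions only in control numbered 9 without control 1 (12.9%, against 15.5%), 8 without control 2 (11.6%, against 20.6%), 4 without KO 1 (5.8%, against 6.13%) and 3 without KO 2 (4.69%, against 4.92%).

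The number of regions with a peak was 42 and 41 in the controls against 42 and 43 in the KO libraries (41.5 ± 0.707 and 42.5 ± 0.707, SD, n = 2 each, two-sided exact permutation p = 0.667). With 2 libraries against 2, the smallest p of this exact test is 0.333. Regions seen in a single library made up 8 of 42 in control 1, 9 of 41 in control 2, 9 of 42 in KO 1 and 14 of 43 in KO 2. These were 19%, 22%, 21.4% and 32.6% of each library's regions at these genes, against 31.2%, 23.4%, 32.4% and 34.2% of its regions in the series. Summits numbered 60 and 60 in the controls against 65 and 55 in the KO libraries (exact permutation p = 1). Regions with a −log10 q of at least 5 numbered 17, 16, 17 and 15.

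Among the 22 regions in all 4 libraries, the percentile was higher in both KO libraries than in both controls at 5 (22.7%, against 19.2% of the series) and lower in both at 6 (27.3%, against 17.6%), and it overlapped at 11. The 5 were 2 at Mitf, 2 at Hdc and 1 at Mcpt8, and the 6 were 3 at Hdc, 2 at Mitf and 1 at Cma1. Mitf held 9 of the 22 and Hdc 7, so values pooled over the 22 describe mostly these genes. The median percentile over the 22 was 78.14 and 74.25 in the controls against 78.7 and 74.01 in the KO libraries, and over all regions in all 4 libraries it was 76.7, 73.74, 76.11 and 75.36. Libraries of the same genotype differed by more than the genotypes did.

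The fold at shared regions was tested with limma on quantile-normalized log2 values over all 80271 regions in all 4 libraries, with Benjamini-Hochberg adjustment. It called 0 regions higher (0%) and 0 lower (0%) with KO, and 2854 and 3269 (3.56% and 4.07%) had an unadjusted p below 0.05. Of the 22 regions of these genes 0 were called, and 1 had an unadjusted p below 0.05, a lower value in KO. The log2 differences ran from −0.47 to 0.54, with 12 above and 10 below 0 and a median of 0.0219, against 0.00417 over all shared regions.

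Both ends of that range were at Mitf. The lowest was at chr6:97805822-97805994, 1008 bp upstream of the gene, where the fold was 2.49 and 3.28 in the controls against 1.96 and 2.14 in the KO libraries (log2 difference −0.47, SE 0.22, adjusted p = 0.651, limma). Both KO values were lower, the percentiles were 37.6, 56.4, 9.5 and 4.08, and the log2 difference was −0.26 without control 2. The highest was at chr6:97866526-97867033, inside the gene 59743 bp from the first start, where the fold was 3.9 and 4.45 in the controls against 5.54 and 5.7 in the KO libraries (log2 difference 0.54, SE 0.28, adjusted p = 0.688, limma). Both KO values were higher. These 2 regions were chosen after their values were seen.

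**Figure D4:**
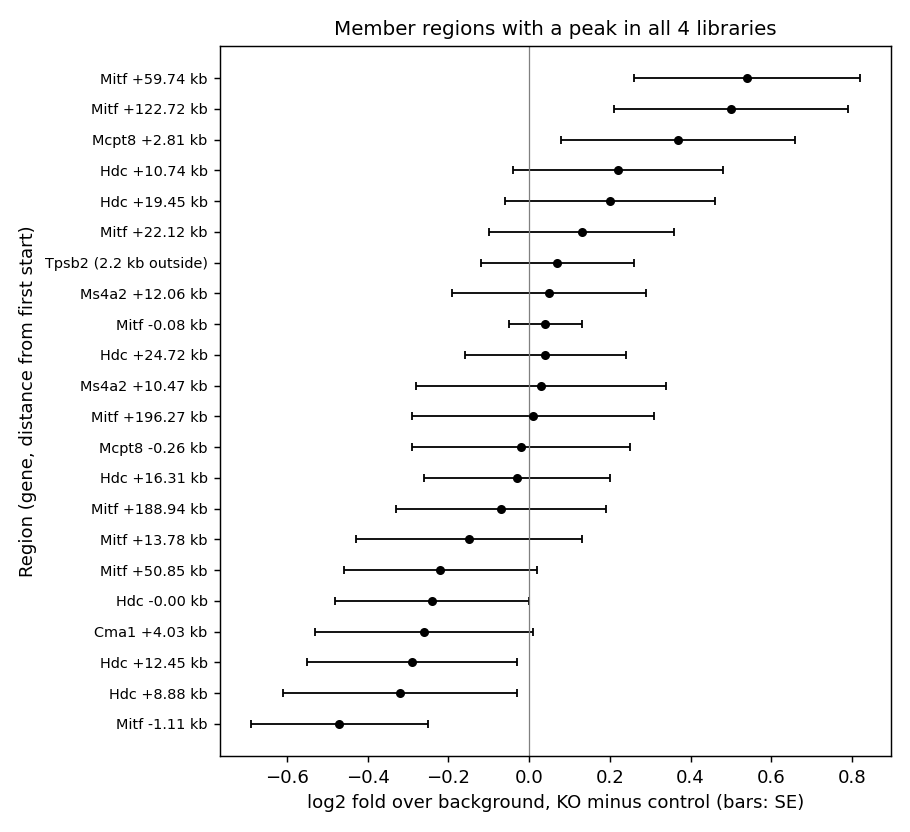
Difference in quantile-normalized log2 fold between the KO and control means (x axis, KO minus control, bars are the SE from limma, 2 libraries per genotype) at the 22 regions in all 4 libraries, each labelled on the y axis by its gene and the summit's distance from the first start in kb. The differences run from −0.47 to 0.54 and the first Mitf start lies at 0.04.

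Beyond the 9 genes, 46 other genes of mast cells and basophils were examined, covering granule proteases and the proteoglycan Srgn, receptors and signalling proteins, genes of mediator synthesis and storage together with cytokines and chemokines, and transcription factors. Of these, 2 had no region, as did 13% of protein-coding genes. They were Mrgprb1 and Mrgprb2, which encode mast cell receptors for basic peptides and drugs. A region in all 4 libraries was held by 38, and by 79.7% of protein-coding genes. The mediator, cytokine and chemokine genes had such a region at 11 of 11, the receptor and signalling genes at 13 of 15, the transcription factors at 9 of 10 and the proteases with Srgn at 5 of 10, Srgn being among the 5. The strongest regions were those of Cebpa, a myeloid transcription factor, Kit, the stem cell factor receptor, and Ltc4s, the leukotriene C4 synthase, with median percentiles over the 4 libraries of 97.5, 97.5 and 96.9 at the strongest region in all 4. Kit and Gata2 are also in the stem cell list, Ctsg in the neutrophil list and Siglecf in the eosinophil list.

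Of the 282 regions of these 46 genes in at least 2 libraries, 4 (1.42%, against 3.47% in the series) were found in both KO libraries alone and 24 (8.51%, against 6.05%) in both controls alone. The 4 lay at Kit (percentiles 37.8 and 62.8 in the KO libraries), Tfec (6.05 and 53.5), Siglecf (55.5 and 36.5) and Csf2rb (48.3 and 41.3). Those only in control lay at Lyn, Csf2rb2 and Cd200r3 with 3 each, at Lat2 and Gata1 with 2 each, and at Tal1, Kit, Alox5, Srgn, Stat5a, Syk, Nfil3, Il3ra, Cma2, Rab27b and Tfe3 with 1 each. Lyn and Syk are kinases that act after the IgE receptor, and their control peaks stood at 7.2 to 60.7 and at 12 and 30.1. At the 172 regions in all 4 libraries, the percentile was higher in both KO libraries at 31 (18%, against 19.2% of the series). It was lower in both at 26 (15.1%, against 17.6%).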

How the data were processed

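ATAC-Seq was performed on sorted bone marrow cells of 2 control and 2 KO samples. Each library had its own peak calls by the authors, and the submitters' processing notes name Bowtie2, MACS2 and mm10. The deposited lists give, per summit, a fold (a ratio to the local background) and the −log10 p and −log10 q, with no counts. Some summits (253 to 492 per list) were written as chromosome positions and read as such. The authors tested reads with DiffBind and edgeR, which peak lists do not allow.

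Peaks on the autosomes and X were merged and ranked with Python 3.11.15, numpy 2.4.6, pandas 2.3.3 and scipy 1.17.1. The distance of a region from a start was taken from its summit in the library of highest percentile. Regions in all 4 libraries were tested with limma 3.58.1 (R 4.3.3, eBayes with trend) on log2 of the fold. The limma step was tested on simulated data, but only with planted changes larger than any difference seen at these genes. Its power for differences of the size seen here was not examined. Genes, starts and sequences came from RefSeq (GRCm38.p6), in which Tpsb2 had no start window. Exons, introns and UTRs were not analysed here.

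The genes and lists were chosen with earlier results of these data known. Named regions were every region of a gene with at most 10. For Hdc and Mitf they were the 5 with the highest lowest-library percentile, those at starts and those specific to a genotype. Other genes named had a genotype-specific region or were the 3 of highest median percentile. Alternatives were a −log10 q of at least 5, lists of equal length (240881 summits), the 100000 strongest summits, coverage of at least 0.5 of a region, a flank of 1000 bp, ranking by fold or −log10 q, other scalings, filters and values for limma, a replicate block and leaving out each library.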

Additional observations from a re-analysis of the deposited data

How the results depend on the processing

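The counts of genotype-specific regions of these genes rest on few and weak peaks. Regions only in KO numbered 1 as reported, 0 when summits needed a −log10 q of at least 5, 2 with the 100000 strongest summits, 0 with a flank of 1000 bp and 1 to 15 when a library was left out. The 2 regions were those of Mitf at chr6:97866532-97867033 and chr6:97929410-97929840, both of which had weaker control peaks when all summits were kept. The lowest −log10 p kept there was 9.04 and 9.46 in the controls against 8 and 6.32 in the KO libraries. Regions only in control numbered 0 as reported, 1 at that −log10 q (Hdc, chr2:126609744-126609923), 1 with coverage of at least 0.5 (Mcpt4, chr14:56055490-56055859) and 3 to 9 when a library was left out. The difference in the number of regions per library, 1 more in KO, became −0.5 at that −log10 q and −1 for a flank of 1000 bp (exact permutation p = 1 for both), 4.5 with lists of equal length (exact permutation p = 0.667) and 2.5 with the 100000 strongest summits (exact permutation p = 0.333, the smallest possible), and ran from 0.5 to 1.5 when a library was left out. Over all shared regions, limma called 1 higher in KO on log2 of −log10 p, 1 lower with median centring, and 0 with the other scalings, filters and left-out libraries. It called 0 of the shared regions of these genes under each of these alternatives. Their log2 differences changed sign at 4 to 7 of 22 regions when a library was left out, and at none of those above 0.26 in size. Ranked by fold, 2 Hdc regions moved by more than the spread of replicates, from 1.94 to 4.42 percentiles higher in KO at 19455 bp from the start and from −1.64 to −0.169 at 16314 bp. With the replicate number as a block, limma called 18 regions higher and 36 lower over the series and 0 of these genes. That model fits a further term to the same 4 libraries, which leaves little to estimate the spread, so these calls are uncertain. Deviations of same-numbered libraries were not correlated (r = 0.00466 over 80271 regions). This concerns the fold values only and cannot tell whether same-numbered libraries were prepared together. The depth of the libraries is unknown, and a test that misses its threshold with 2 libraries against 2 does not show that the genotypes are alike.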

Other observations

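Marker genes of other blood lineages gave a scale for the 9 genes. Neutrophil granule genes held a region in all 4 libraries at 9 of 10 and a peak at the start in all 4 at 6 of 10, and eosinophil genes did so at 8 of 9 and at 1 of 8. Among the 9 mast cell and basophil genes the counts were 6 of 9 and 3 of 8. Of protein-coding genes, 79.7% held a region in all 4 libraries, and 10783 of 17273 with a start window held a peak there in all 4. By window, 40% of those of the 9 genes held a peak in every library and 50% in none, against 45.5% and 44.7% of all windows. Over the genes with a region in all 4 libraries only, the strongest such region had a median percentile of 95.2 for the stem cell genes, 86.8 for the neutrophil genes, 86.4 for the mast cell and basophil genes and 68.1 for the eosinophil genes. On the same scale it was 95.9 for megakaryocyte, 94.4 for erythroid, 93.6 for B cell and 92.8 for liver, neuron and muscle genes. It was 91.4 for T cell and 88.5 for monocyte and macrophage genes, and all of these lists were above the 9 genes. Among the other mast cell and basophil genes it was 95.8 for transcription factors and 92.1 for receptor and signalling genes. It was 88.4 for mediator, cytokine and chemokine genes and 65.3 for proteases with Srgn. Over protein-coding genes it was 95.4. Genes of liver, neurons and muscle held a region in all 4 libraries at 8 of 11 and a peak at the start at 1 of 9. The percentile of the strongest region is the highest of a gene's regions, and the lists differed in their number. The median was 25.5 regions per gene for the stem cell genes, 6 for the 9 genes and 5 for the eosinophil genes. Whether region number or gene length accounts for differences on this scale was not tested. These lists are short, genes within them share libraries, and no test was made of the differences between lists.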
